A study of Mus musculus with 9 samples.

Results

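The binding of retinoic acid receptor alpha (RARA) was mapped by ChIP-seq in E14 mouse embryonic stem cells after 4 h of retinoic acid (RA), and the deposited list of binding regions, or peaks, is described here. All peaks on chromosomes 1 to 19 and X were taken, and rows with the same chromosome, start and end were counted as 1 peak with several summits. This gave 9639 of the 9757 peaks in the list, from 11218 of its 11366 rows. The peak numbers in the names ran from 1 to 9757 without a gap, so the list held every peak that its authors numbered. The other 118 peaks lay on sequences outside these chromosomes.

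The ChIP was 1 library, made with an antibody against RARA from cells that had been grown with leukemia inhibitory factor (LIF) and then received 1 µM RA for 4 h without LIF. Its control was 1 input library, an aliquot of chromatin from RA-treated cells that was not immunoprecipitated. The series also holds a plasmid library of accessible (FAIRE) DNA from RA-treated cells, and the enhancers found with it by a reporter assay (STARR-seq) in cells with LIF and in cells with RA. No ChIP of cells without RA and no ChIP with a control antibody were analysed here, so binding with and without RA was not compared. With 1 library on each side there was no replicate spread: values are given without a test between conditions, the 95% intervals cover counting error only, and peaks of 1 library are not replicates of each other.

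RARA is a nuclear receptor that binds DNA together with a partner of the retinoid X receptor family. The pair recognises direct repeats of a short hexamer, and it can sit on such elements without ligand while it recruits corepressors. Binding of RA changes the receptor's shape, releases corepressors and recruits coactivators. In embryonic stem cells RA is widely used to start differentiation, and RA target genes include enzymes that break RA down, RA receptors themselves and Hox genes. Peak positions are on build mm9 and counted from 1. The peaks are given by position only, since no gene annotation or sequence of that build was used here. The list holds no readout of which protein was bound, so the label could not be checked in it.

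RARA peaks were narrow. The median width was 256 bp (95% interval 253 to 260), the quartiles were 192 and 375 bp, and 28.5% of the peaks (2746) measured 150 to under 200 bp, next to the minimum of 150 bp carried in the peak names. At the other end, 135 peaks (1.40%) were at least 1000 bp wide and held 5.63% of the 3086 kb covered by all peaks together. The widest peak measured 2655 bp.

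**Figure D1:**
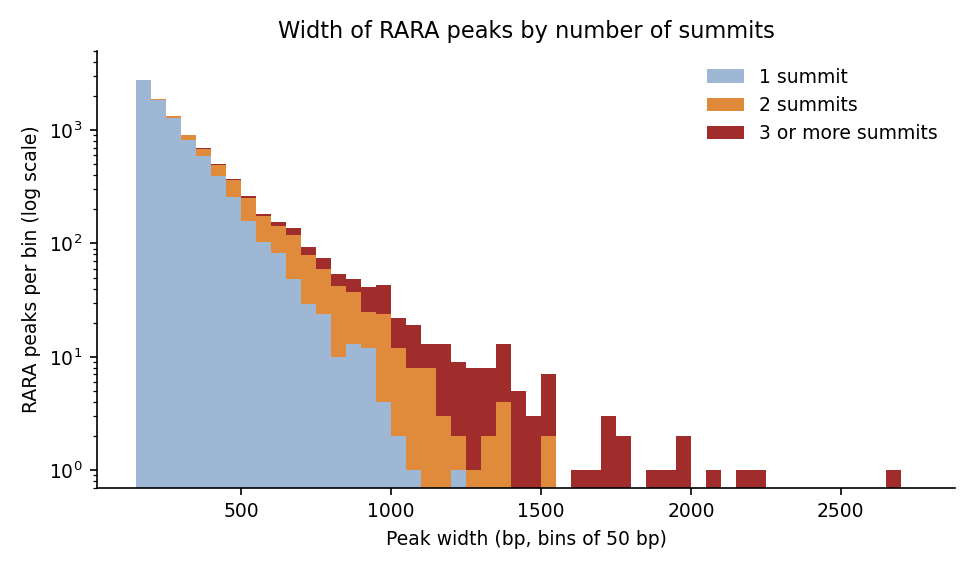
Number of RARA peaks (vertical axis, log scale) by peak width in bins of 50 bp (horizontal axis), stacked by the number of summits in the peak. Counts fall steadily from the shortest bin, and the peaks beyond 1246 bp, the widest with 1 summit, all have several summits.

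A single summit was the rule. A summit is a position of locally highest signal, and 8398 peaks (87.1%) had 1, while 1241 (12.9%, 12.2 to 13.6) had several. Among the latter, 988 had 2 summits, 196 had 3, 41 had 4, 9 had 5, 4 had 6, 2 had 7 and 1 had 9. In peaks with 1 summit, the summit lay a median of 29 bp from the centre, and in 63.8% of them it fell in the middle one of 3 equal parts of the peak. It was to the left of the centre in 57.4% of them. In peaks with several summits, neighbouring summits stood a median of 239 bp apart (quartiles 167 and 350.5 bp, range 10 to 1138 bp).

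Listed summits of 1 peak were mostly of like height. The second highest summit had a median of 0.842 times the fold of the highest, with quartiles of 0.708 and 0.931. It was under 50% of the highest in 140 of the 1241 peaks. The median peak with 2 summits had 42.5 fragments, and the lowest peak of the list had 25. The list has a q cut-off, and its part in these ratios was not tested. Of the 988 peaks with 2 summits, 474 (48.0%) had the higher one on the left.

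The strength of a peak is given by the authors' fold enrichment at the summit, the ChIP signal over the local background after 1 was added to both, and by their −log10 p and −log10 q. In all 11218 rows the fold and the −log10 p together solved to 1 whole number of ChIP fragments at the summit and 1 local background under a Poisson model, within 0.001 in −log10 p or a relative 0.0001. With nothing added to the signal and the background only 98 rows (0.874%) solved. The number of fragments behind each peak was thus read from the list; no read counts were used here.

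Most RARA peaks rested on few fragments. The median peak had 38 fragments at its summit (exact Poisson interval 26.9 to 52.2), over a median local background of 9.99. The lowest peak had 25 (16.2 to 36.9), and 2010 peaks (20.9%) had fewer than 30. Peaks with at least 100 fragments numbered 678 (7.03%), and 27 peaks had at least 500. The q cut-off of the list sets how few fragments a listed peak can have at a given background, so weaker binding is not described here.

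The local background had a floor too. In 3806 peaks (39.5%) it was 9.21, the lowest value in the list, and 837 peaks (8.68%) had a background above 20, of which 153 were above 50. Of the 5833 peaks above the floor, 2066 had a background on whole multiples of 2.83, most commonly the 4th multiple, and a further 2220 were on multiples of 0.616, within 0.003. Such steps are what single input fragments would give after scaling to the ChIP library and to windows of different length; that reading is not stated in the sources used here. A background on the first of these steps would then rest on a median of 5 input fragments, which limits the precision of each fold.

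Fold enrichment was modest for most peaks. The median was 3.08 (3.04 to 3.12), the quartiles were 2.65 and 3.92, and the range was 1.24 to 98.7. A fold of at least 3 was reached by 5290 peaks, which is 54.9% of all 9639 and thus the background share for any group of peaks described here. At least 5-fold enrichment was found at 1322 peaks (13.7%), at least 10-fold at 233 (2.42%) and at least 20-fold at 42 (0.436%). The 10% of peaks with the highest folds held 29.0% of the fragments above background, summed over summits. Near the cut-off, 261 peaks (2.71%) had a −log10 q within 0.3 of its value of 2, and they had a median fold of 2.36 and 28 fragments at the median.

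Low folds and high backgrounds went together. All 184 peaks with a fold under 2 had a background above 20, with a median background of 45.4 and a median of 83.5 fragments. The split at 20 was chosen after the values were seen. Across the 9639 peaks, which share both libraries, Spearman's rho was −0.296 between fold and background, 0.545 between fold and fragments and 0.444 between fold and width. The background enters the fold and the calling of the peak, so these relations are descriptions of the list.

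**Figure D2:**
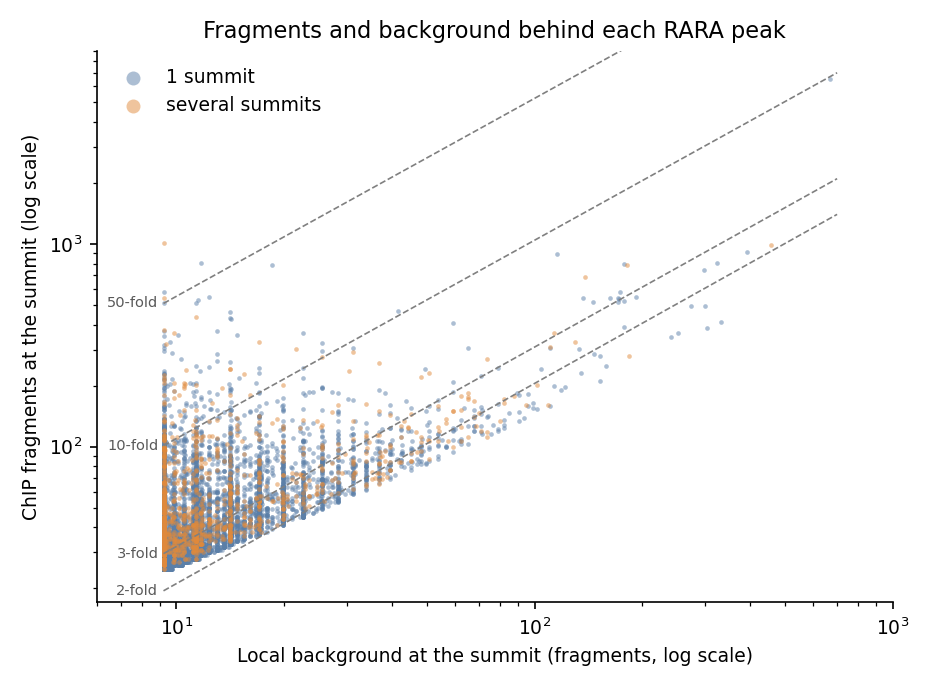
ChIP fragments at the summit (vertical axis, log scale) against the local background (horizontal axis, log scale) for each RARA peak, coloured by 1 or several summits, with dashed lines of equal fold. The column of points on the left is the 3806 peaks at the floor of 9.21, and peaks below 2-fold occur only at backgrounds above 20.

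The strongest RARA peak by fold lay on chromosome 3 from 152395775 to 152397306. It was 1532 bp wide with 2 summits, and 1006 fragments (945 to 1070.1) stood over a background at the floor of 9.21, a fold of 98.7. It overlapped accessible library DNA but no listed enhancer, and its nearest neighbour was 417 bp away. The next was on chromosome 19 from 35350493 to 35351143, with 808 fragments (753 to 866) over 11.7 and a fold of 63.6. That on chromosome 18 from 73251294 to 73252093 had 577 fragments (531 to 626) over 9.21, a fold of 56.6. Neither of these 2 lay in library DNA. The intervals of the first 3 peaks' fragment counts do not overlap. The peaks were picked by fold, which uses these counts, so the intervals do not settle their order.

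Next in rank, a peak on chromosome 10 from 68467540 to 68468522, had 539 fragments (494 to 586) and a fold of 52.9. One on chromosome 4 from 106051689 to 106052613, had 513 fragments (469.6 to 559) and a fold of 50.4 and was the only one of the 10 strongest at a listed enhancer, one found in cells with LIF. The fragment intervals of these 2 and of the chromosome 18 peak overlap, so their order is within counting error.

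The other 5 of the 10 strongest had folds of 37.0 to 42.7. They lay on chromosome 4 from 150746826 to 150747634, on chromosome 3 from 88083680 to 88084501, on chromosome 1 from 184430890 to 184431479, on chromosome 6 from 139968387 to 139968858 and on chromosome 9 from 103274447 to 103275431. Among all 10, 7 had 1 summit, 7 overlapped library DNA, 5 had a background at the floor and 4 had another peak within 10 kb. In the whole list these shares were 87.1%, 56.3%, 39.5% and 41.3%. Widths of the 10 ran from 472 to 1532 bp, above the upper quartile of the list.

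A ranking by fragments named other places than the ranking by fold. These peaks were picked after their values were seen. The most fragments, 6533 (6376 to 6693), were at a peak of 353 bp on chromosome 12 from 98299647 to 98299999, over a background of 670.0, the highest of the list, so that its fold was 9.74. On chromosome 15 from 74916020 to 74917391, 988 fragments over a background of 458 gave a fold of 2.15. On chromosome 18 from 3005633 to 3006050, 912 fragments over 393 gave 2.32. None of these 3 lay in library DNA. None was at a listed enhancer either, but the enhancers were found with that library, so this is no reading of activity. Of the 5 peaks with most fragments, only the chromosome 3 peak named first was also among the 10 of highest fold. At the lowest fold of the list, on chromosome 8 from 19924601 to 19924871, 410 fragments (371 to 452) stood over a background of 331.

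The 10 widest peaks were not the strongest. They measured 1772 to 2655 bp, had 4 to 9 summits each and a median fold of 5.09, with a range of 3.38 to 31.1. The widest, on chromosome 12 from 60136056 to 60138710, had 5 summits, 34 fragments and a fold of 3.43. The highest fold among them, 31.1 with 321 fragments, was at a peak of 1955 bp on chromosome 5 from 118894537 to 118896491. Of the 10, 7 overlapped library DNA, 4 a listed enhancer, and 9 had another peak within 10 kb. The shares in the whole list were 56.3%, 9.31% and 41.3%, and those in the widest decile of peaks were 78.4%, 20.5% and 58.6%. A wider peak has more bases with which to meet a region.

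The peak with most summits, 9, lay on chromosome 17 from 36053920 to 36055974 and had 44 fragments and a fold of 3.38. The 5 peaks with most summits also included 2 with 7 summits, on chromosome 16 from 3343817 to 3345998 and on chromosome 13 from 98261068 to 98262513. Of 4 peaks tied at 6 summits, the 2 of higher fold were taken, on chromosome 5 from 73293349 to 73295077 and on chromosome 16 from 3121461 to 3123311. The folds of the 5 peaks taken ran from 3.31 to 13.4, and each had another peak within 10 kb, as did 41.3% of the whole list.

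Peaks with several summits were wider, somewhat stronger and more often near other peaks. From 1 to 2, 3 and at least 4 summits, the median width was 237, 503.5, 842 and 1263 bp, the median fold was 3.04, 3.24, 3.62 and 3.79, and the median number of fragments was 37, 42.5, 52 and 50. Their share in library DNA was 54.5%, 66.3%, 75% and 80.7%, and their share at a listed enhancer 8.38%, 13.5%, 20.9% and 33.3%. The share with another peak within 10 kb was 39.2%, 53.6%, 62.8% and 73.7%. The last group holds 57 peaks. Fold and fragments are those of the summit of highest −log10 q, so a peak with more summits has more values to pick from. Several summits were also more frequent at a background above 20, with 20.7% of peaks, than at a lower one, with 12.1%.

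At like width the order of fold turned around. Among peaks of 600 bp up to 900 bp, 207 with 1 summit had a median fold of 6.41 and 78 fragments, and 354 with several had 3.78 and 51. From 400 up to 600 bp the medians were 4.42 (918 peaks) and 3.16 (394 peaks), and from 300 up to 400 bp they were 3.57 (1404 peaks) and 2.94 (189 peaks). The share in library DNA from 400 up to 600 bp was 71.6% (68.6 to 74.4) with 1 summit and 62.9% (58.1 to 67.6) with several. From 600 up to 900 bp it was 78.7% and 77.7%, with overlapping intervals. The share at a listed enhancer did not rise steadily with summits at like width. It was 10.3% with 1 summit and 11.6% with several from 300 up to 400 bp, and 16.2% and 14.2% from 400 up to 600 bp. From 600 up to 900 bp it was 22.2% and 16.7%. The intervals overlap in each pair. RA-induced enhancers are those with more reporter activity in RA than in LIF. In that widest class they were overlapped by 15 of the 207 peaks with 1 summit (7.25%) and by 7 of the 354 with several (1.98%). The share in the whole list, over peaks of all widths, was 1.22%. LIF-dependent enhancers went the other way from 600 up to 900 bp, with 3 (1.45%) and 11 (3.11%) peaks. From 400 up to 600 bp their shares were 1.20% and 2.28%, but from 300 up to 400 bp they were 1.35% and 1.06%. These counts are small. The share with another peak within 10 kb, by contrast, was higher with several summits in each of these width classes. It was 52.9% (45.8 to 59.9) with several and 40.9% (38.3 to 43.5) with 1 summit from 300 up to 400 bp, 50.5% and 45.4% from 400 up to 600 bp, and 59.3% and 51.7% from 600 up to 900 bp. The intervals of the last 2 pairs overlap.

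RARA peaks were unevenly spaced. The distance from a peak to its nearest neighbour, edge to edge, had a median of 18518 bp, with quartiles of 2821 and 82938.5 bp. Another peak lay within 1 kb of 14.4% of peaks, within 10 kb of 41.3% (40.3 to 42.3) and within 100 kb of 78.2%. No 2 listed peaks were closer than 219 bp, and the part of the peak caller in this minimum was not tested. Between the 9619 pairs of consecutive peaks the gap had a median of 52.7 kb and a mean of 267 kb, 5.06 times as much. The 641 gaps above 1 Mb (6.66% of gaps) held 54.0% of the total length of all gaps. The longest, 10.1 Mb, was on chromosome 1.

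Neighbours close together had related strengths. Over the 2549 consecutive pairs with a gap of up to 10 kb, Spearman's rho between the folds was 0.281, against 0.0784 over the 3334 pairs at 10 to 100 kb and 0.0471 over the 3736 pairs farther apart. These are descriptions, and close pairs also share their local background.

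Closely spaced peaks were more frequent where the background was high. Of the 837 peaks with a background above 20, 71.4% had another peak within 10 kb, compared with 38.5% of the 8802 with a lower background. With the peaks of high background taken out of the list altogether, 37.2% of the rest had another within 10 kb. By decile of fold, the share with another within 10 kb was highest at both ends. It was 60.5% in the lowest decile, where the median background was 19.8, between 35.7% and 42.8% in the deciles between, and 47.9% in the highest, where the median background was 9.86.

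**Figure D3:**
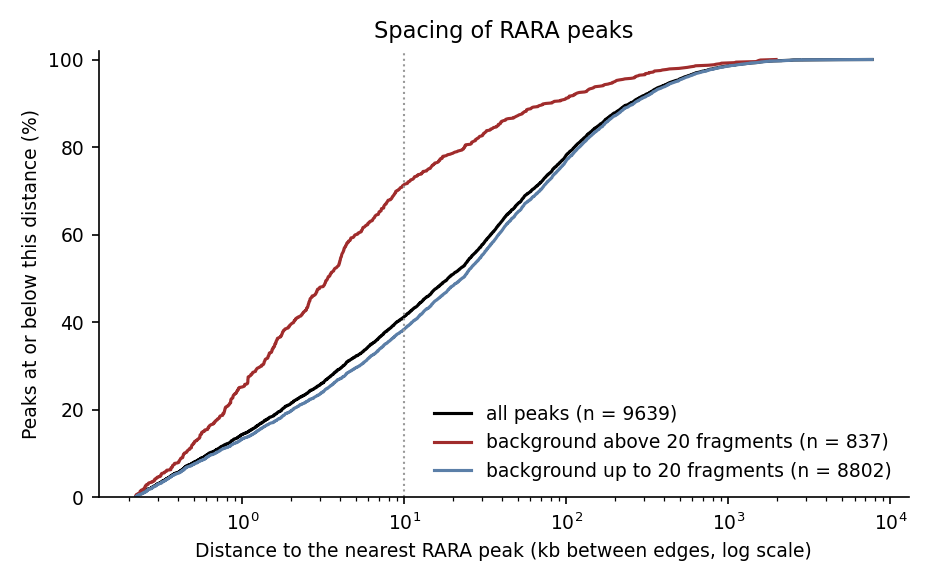
Cumulative share of RARA peaks (vertical axis, percent) whose nearest neighbour lies at or below a distance (horizontal axis, kb, log scale), for all 9639 peaks, the 837 with a background above 20 fragments and the 8802 below. At the dotted line of 10 kb the curves stand at 41.3%, 71.4% and 38.5%.

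When peaks at most 10 kb apart were linked into runs, 5656 peaks (58.7%) stood alone and 3983 formed 1434 runs of 2 or more. Most runs were short: 899 had 2 peaks and 310 had 3. Runs of at least 10 peaks numbered 17 and held 223 peaks (2.31%). Chromosome 13 had 7 of them, chromosome 4 had 4 and chromosome 3 had 2.

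The long runs were divided at a median background of 20, a split chosen after the values were seen. In 8 of the 17 the median background was above 20 and the median fold ran from 1.65 to 2.56. In the other 9 it was up to 20 and the median fold ran from 2.65 to 7.46. The background enters the fold, and the fold ranges nearly meet at the split. Whether the runs are of separate kinds was not tested. Nor was the part of the background in forming these runs tested.

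The run with most peaks, 21 on chromosome 4 from 146779573 to 146836456, was above the split. It had a median fold of 2.23, a median background of 44.3 and no peak of at least 3-fold. The second run, 19 peaks on chromosome 5 from 14933705 to 15009564, was also above the split. Its median fold was 2.41 and its median background 24.8, with 4 peaks of at least 3-fold. A run of 16 peaks on chromosome 13 from 21988590 to 22033029 was below the split. It had a median fold of 5.97, a background of 12.4 and 14 peaks of at least 3-fold. Of the 2 runs of 15, that on chromosome 13 from 66513242 to 66573807 had a median fold of 2.56, a background of 21.6 and 4 peaks of at least 3-fold. The other, from 23517335 to 23559141 on the same chromosome, had a median fold of 7.46 and a background of 11.2, and all its 15 peaks were at least 3-fold. None of these 5 runs had more than 1 peak at a listed enhancer.

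Over the genome, peaks were widespread but concentrated. Of 2589 windows of 1 Mb between the first and last library region of each chromosome, 1831 (70.7%, 68.9 to 72.4) held at least 1 peak. A window held 2 peaks at the median, 3.72 on average and 118 at most. The fullest 10% of windows (259) held 45.0% of the peaks and the emptier 50% held 6.49%. The longest stretch of windows without a peak, 10 Mb, was on chromosome 1 from 21000001 to 31000000.

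The 3 fullest windows held 316 peaks (3.28%), and their folds were low. On chromosome 4 from 146000001 to 147000000 there were 118 peaks with a median fold of 2.33 and a median background of 33.9, and 21 of them (17.8%) reached 3-fold, against 54.9% in the whole list. The window before it, from 145000001 to 146000000, held 104 peaks with a median fold of 2.35 and a background of 26.7, and 14 (13.5%) reached 3-fold. On chromosome 13 from 66000001 to 67000000 there were 94 peaks with a median fold of 2.73 and a background of 17.9, and 34 (36.2%) reached 3-fold. In these windows 21.2%, 23.1% and 23.4% of the peaks lay in library DNA, compared with 56.3% in the whole list. The solved backgrounds of these 3 windows were above the list median of 9.99. The part of the background in the number of peaks was not tested.

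Other crowded windows, picked after their values were seen, had high folds. On chromosome 13 from 23000001 to 24000000, 49 peaks had a median fold of 5.12 over a background of 12.9, and 73.5% reached 3-fold. On the same chromosome from 21000001 to 22000000, 40 peaks had a median fold of 5.34 over 11.3. On chromosome 3 from 96000001 to 97000000, 48 peaks had 3.77 over 13.9. Their shares in library DNA were 65.3%, 62.5% and 54.2%. The opposite was found on chromosome 8 from 19000001 to 20000000, where 43 peaks had a median fold of 1.92 over a background of 59.4, and 2 of them lay in library DNA. A low fold also occurred at a lower background. On chromosome 12 from 116000001 to 117000000, 47 peaks had a median fold of 2.60 over 13.6, and 8.51% lay in library DNA. Of all 52 windows with at least 20 peaks, 7 had a median background above 20 and median folds of 1.92 to 2.60. The other 45 had median folds of 2.60 to 6.42. In 35 of the 52 the median background was below 12.

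Chromosomes differed in the density of peaks. Over the span of the library regions, 2577 Mb in all, chromosome 11 had 6.17 peaks per Mb, chromosome 4 had 5.99, chromosome 17 had 5.47 and chromosome 13 had 5.03. The median chromosome had 3.81, the lowest autosome, chromosome 14, had 2.63, and chromosome X had 0.636 with 104 peaks. Chromosome 4 held 217 (25.9%) of the 837 peaks of high background and 9.48% of all peaks. Among peaks with a background of up to 20, the density was 5.87 on chromosome 11, 5.00 on chromosome 17 and 4.57 on chromosome 4.

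The order depended on what peaks were counted against. Per 1000 library regions, chromosome 4 was highest with 72.1 and chromosome 13 next with 68.2, chromosome 11 had 55.8, and chromosome X with 40.4 was level with chromosome 15 with 40.3. The low density of peaks on chromosome X went with few library regions, 2576. Medians of strength and width differed little between chromosomes: median folds ran from 2.93 on chromosome 4 to 3.33 on chromosome X and median widths from 230 to 272 bp. Shares differed more. The share reaching 3-fold ran from 45.7% on chromosome 4 to 67.3% on chromosome X. The share with a background above 20 ran from 2.56% on chromosome 19 to 23.7% on chromosome 4. Peaks with several summits made up 10.0% to 17.1%.

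**Figure D4:**
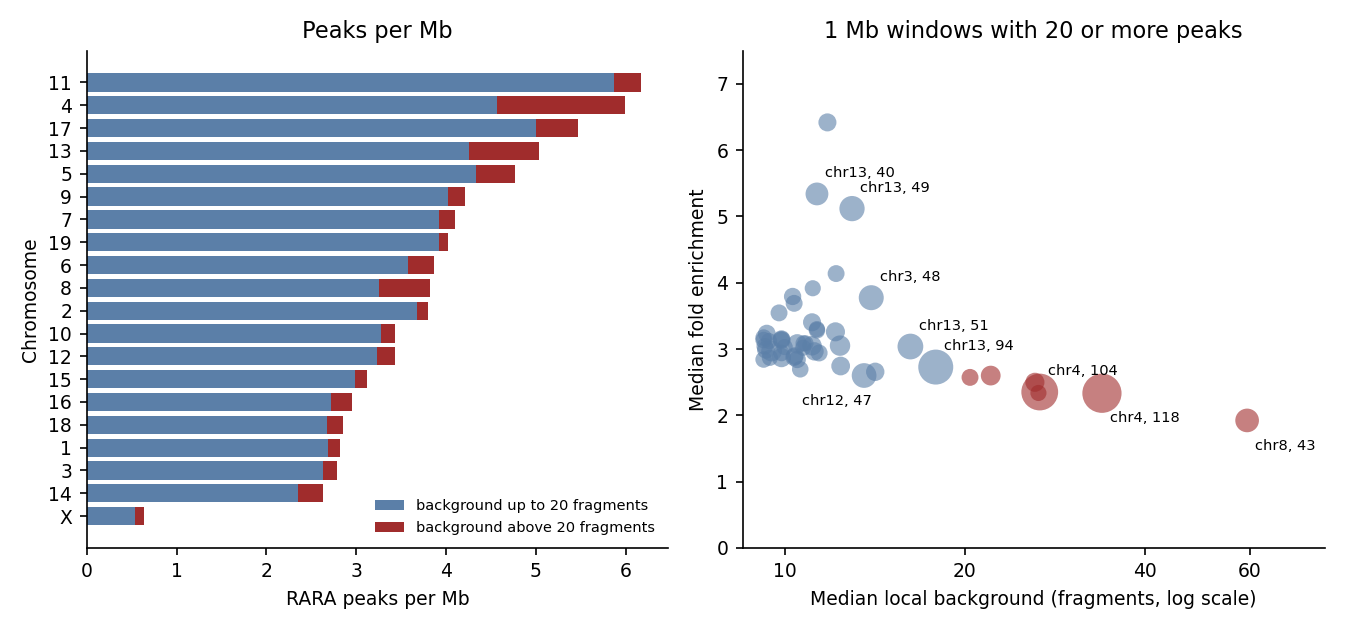
Left, RARA peaks per Mb of library span (horizontal axis) on each chromosome (vertical axis), divided at a local background of 20 fragments. Right, median fold against median local background (log scale) in the 52 windows of 1 Mb with at least 20 peaks, with areas proportional to the number of peaks and, from 40 peaks up, the chromosome and number. The fullest windows, 118 and 104 peaks on chromosome 4, have medians of 2.33-fold and 2.35-fold at high background, and chromosome 13 windows of 49 and 40 peaks have medians above 5.

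More than 50% of the RARA peaks touched DNA that was accessible in RA-treated cells, and fewer had their summit in it. Of the 9639 peaks, 5422 (56.3%, 55.3 to 57.2) shared at least 1 bp with a region of the plasmid library, and 47.0% had their summit inside one. Conversely, 5488 of the 186948 library regions (2.94%) held an RARA peak. Regions under a peak were wider than library regions in general, with medians of 471 and 327 bp, and had a higher fold of their own in the authors' list, with medians of 8.25 and 5.48. A wider region has more bases with which to meet a peak. Among overlapping pairs only, the summits of the peak and of the library region were a median of 94 bp apart. They were within 100 bp in 52.4% of these pairs. Such distances are short by selection, since the peak and the region share DNA.

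Stronger peaks lay in accessible DNA more often. By decile of fold the share went from 43.4% (418 peaks) in the lowest to 72.6% (699 peaks) in the highest, with intervals that do not overlap. Of peaks in library DNA, 59.2% reached 3-fold, compared with 49.3% of those outside and 54.9% of all. Within the peaks in library DNA, however, Spearman's rho between the RARA fold and the library fold was 0.000445 over 5422 peaks, so no rank relation was seen between these folds. By width decile the share went from 44.5% to 78.4%, and a wider peak has more bases with which to meet a region. By background it was 55.9% at the floor, 62.8% from 12 to 20, 42.7% from 20 to 50 and 16.3% above 50.

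Listed enhancers were found with the plasmid library, and 4217 RARA peaks (43.7%) lay outside its regions. A peak off enhancers may thus lie outside the library or lack activity. The share in library DNA also rose with fold, and its part in the enhancer share was not tested. Of all 9639 peaks, 897 (9.31%) were at a listed enhancer, and the share was larger among stronger peaks. It was between 6.43% and 7.26% in the lower 5 deciles of fold, 8.92% and 8.30% in the next 2, 11.0% (9.17 to 13.1) and 10.2% (8.41 to 12.2) in the 2 after these, and 19.6% (17.2 to 22.3) in the highest. Enhancers induced by RA were most frequent in the same decile: 53 of the 118 peaks at such an enhancer were in the highest decile of fold, 5.50% of that decile, and no other decile had more than 12. Of the 8742 peaks off enhancers, the nearest enhancer was a median of 74 kb away, and 15.4% had one within 10 kb. For the 774 of these in the highest decile of fold the median was 66.6 kb.

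**Figure D5:**
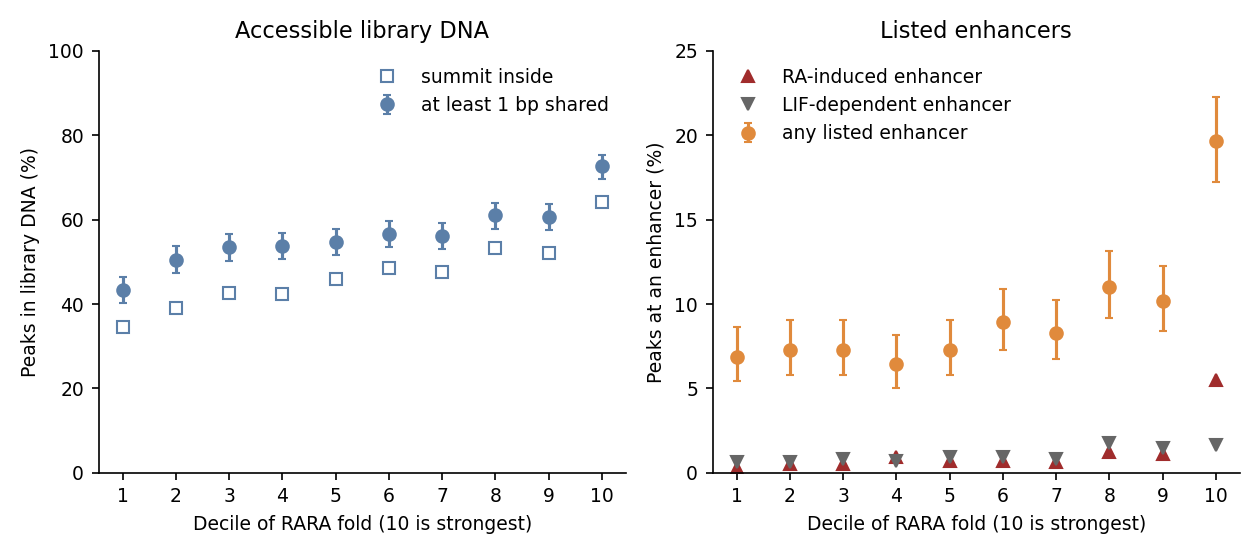
Share of RARA peaks (vertical axes, percent) that overlap accessible library DNA (left) and listed enhancers (right) by decile of RARA fold (horizontal axes, lowest to highest), with 95% Wilson intervals for an overlap of at least 1 bp. The library share goes from 43.4% to 72.6% over the range, while the enhancer share lies at or below 11.0% in every decile below the highest and at 19.6% in the highest.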

How the data were processed

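RARA ChIP-seq had 1 library and 1 input library, both after RA. The tools named per the submitters' processing notes were MACS2, Bowtie2, SAMtools, deepTools and UMI-tools, with build mm9; order, settings and versions were not given in the sources used here. No header comes with the deposited peak list. The authors' columns in it are a fold enrichment at the summit (a ratio), −log10 p, −log10 q, the summit and a score, which is the −log10 q multiplied by 10, without its decimals. The peak names carry a q of 0.01 and a length of 150 bp. The deposited library and enhancer lists have the same columns. The enhancer peaks were called on merged replicates, per the peak names.

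Rows of 1 region were collapsed and the row of highest −log10 q kept. ChIP fragments and local background were solved from the fold and −log10 p, both the authors' values. Overlap needed 1 bp. Shares carry 95% Wilson intervals, medians order-statistic intervals and fragments exact Poisson intervals. No read totals were used here, so library depth is unknown. No test was run, since neither side has replicates. The solving, gaps and overlaps were tested on simulated data. Scripts ran in Python 3.11.15 with SciPy 1.17.1, pandas 2.3.3, NumPy 2.4.6 and, for figures, Matplotlib 3.10.9.

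The members and lists were chosen with earlier results of these data known. Named were the 10 peaks of highest fold, the 10 widest, the 5 with most summits, the 5 runs with most peaks and the 3 fullest windows; others are marked. Alternatives changed the peak set, summit rule, distances, windows and overlap rule. Planned gene lists need an annotation of mm9 and were not analysed here.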

Additional observations from a re-analysis of the deposited data

Results flagged for a closer look

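The list also held 118 RARA peaks on sequences outside chromosomes 1 to 19 and X, which enter no comparison above: 51 on unplaced sequence, 66 on other random contigs and 1 on the mitochondrial genome. Their median fold was 2.50, and 22.0% reached 3-fold, against 54.9% on the main chromosomes. The peak on the mitochondrial genome had several summits, of which the highest in fold was at 15.2 and the one of highest −log10 q at 14.4.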

How the results depend on the processing

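Of 42 alternative values for 11 results, 37 were read against the counting interval of the first value: 6 stayed within it and 31 did not. The other 5 are numbers of peaks, read against a factor of 1.5: 11218 rows, 8897 peaks merged within 1 kb and 8802 peaks with a background of up to 20 were within it, and 2 numbers given next were not. None has a test. Taking peaks at or above the median −log10 q of 6.06 gave 4824 peaks, a median width of 316 bp, several summits in 16.8%, a nearest distance of 43.5 kb, 29.6% within 10 kb of another, 58.1% of windows occupied, 59.8% in library DNA and 11.9% at an enhancer. Peaks of at least 3-fold numbered 5290, with several summits in 15.6%. Peaks with 1 summit had a median width of 237 bp. The median fold was 3.04 for these, and also with the mean over summits or the first summit. Peaks with a background of up to 20, an alternative chosen after the values were seen, had several summits in 12.1%, a median fold of 3.14, a nearest distance of 24.3 kb, 37.2% within 10 kb of another and 58.0% in library DNA. Without chromosomes 4 and 13 the nearest distance was 21.5 kb, with 39.1% within 10 kb. The share with a neighbour was 32.2%, 51.0% and 67.0% within 5, 20 and 50 kb. Occupied windows were 53.2% at 500 kb and 86.2% at 2 Mb. The densest chromosome stood at 1.62 times the median chromosome per Mb and 1.48 times per 1000 library regions. The library share was 47.0% with the summit inside, 45.1% with 50% of the peak covered and 42.5% in the stronger 50% of regions. The enhancer share was 7.60% with the summit inside and 13.3% within 1 kb. With nothing added to the fold, 0.874% of rows solved. The changes follow from which peaks, distances or overlaps each alternative counts. No paired analysis was possible because the ChIP and its input are 1 library each. Depth limits single peaks: the median 38 fragments have an interval of 26.9 to 52.2.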
